A study of Rattus norvegicus with 12 samples.

Results

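One-carbon and methionine metabolism was followed through 46 genes, chosen by name: every gene of a list of enzymes, transporters and subunits of these pathways that the platform annotation names, each read on the probe set with the highest mean over the 12 arrays. All 46 of the 46 listed genes were measured, on 59 probe sets, out of 14217 named genes on 31042 tested probe sets. The cells were hepatocytes of Wistar rats, freed from the liver with collagenase, purified over Percoll and taken into primary culture, so every group shares that isolation and a night in culture. On the following day they received rat interferon alpha, an antiviral cytokine, at 250 U/ml, or none. The 4 groups were interferon alpha for 6 h, control at 6 h, interferon alpha for 3 h and control at 3 h, with 3 Affymetrix arrays in each. The labels number the arrays of each group as biological replicates 1 to 3, and do not say whether a number stands for an animal, a preparation or a day. The age and sex of the rats are not given in the sources used here.

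One-carbon metabolism moves single carbon groups between carriers. Folates carry them for the synthesis of nucleotides, serine and glycine, and methionine, once activated to S-adenosylmethionine, hands them on as methyl groups to lipids, creatine, nicotinamide, DNA and proteins. The homocysteine left behind is either methylated again or passed through transsulfuration to cysteine, from which taurine and glutathione are made. The liver carries out much of the body's methionine breakdown, and hepatocytes hold the liver form of methionine adenosyltransferase and the betaine route of homocysteine methylation, which most other tissues lack.

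Values are log2 RMA signals per probe set, a scale on which a difference of 1 is a 2-fold change. Probe sets bind with unequal strength, so a signal is compared between arrays and never between genes. A gene was called when the adjusted p of limma (Benjamini-Hochberg over all tested probe sets) was under 0.05, and a change is given with its standard error in that fit. Arrays of the same replicate number deviated from their group means together, so each call is also given with the replicate number as a block. The number of arrays, 3 in a group, limits the precision.

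As a check of the cells, the 9 of 10 hepatocyte markers that were measured all lay above the upper quartile of the arrays. All 5 measured endothelial and all 5 measured lymphocyte markers lay below the array medians, of the macrophage markers Cd14 alone and of the bile duct markers Epcam alone were above the upper quartile, and 4 of 6 stellate markers were below the medians. The summed hepatocyte signal was 16.49 to 16.65 log2 at 6 h and 16.54 to 16.65 at 3 h. Array medians ran from 5.16 to 5.21. As a sign of RNA quality, the actin control probes at the 3' end exceeded those at the 5' end by 0.677 log2 at 6 h and 0.677 at 3 h, and the GAPDH ones by 0.104 at 6 h and 0.0855 at 3 h.

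Most of the pathway was well measured in these hepatocytes. Of the 46 genes, 38 had a mean signal above the upper quartile of every array (7.49 to 7.62) and 5 had one below the median of every array. Those 5 were the de novo DNA methyltransferases Dnmt3a and Dnmt3b, the folate receptors Folr1 and Folr2, and Mthfd1l, the mitochondrial formyltetrahydrofolate synthetase. At such signals the share of background is not known, and a change of these 5 could be understated.

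In the methionine cycle, Ahcy, which splits S-adenosylhomocysteine, averaged 12.95 over the 12 arrays (12.79 to 13.08), and Bhmt, which methylates homocysteine with betaine, averaged 12.84 with a far wider range of 11.55 to 13.63. Among the methyltransferases, Gnmt, which uses up S-adenosylmethionine by methylating glycine, averaged 11.24 and Gamt, the last enzyme of creatine synthesis, 11.11. In transsulfuration and what follows it, Cdo1, which oxidises cysteine on the way to taurine, averaged 12.92 (12.74 to 13.10) and Gss, glutathione synthetase, 11.54. Of the enzymes that work on folate-bound units, Aldh1l1, which oxidises formyltetrahydrofolate, averaged 11.87, and Shmt2, the mitochondrial serine hydroxymethyltransferase, 11.53. Fpgs and Ggh, which add and remove the glutamate tails of folates, averaged 8.83 and 8.41. For glycine cleavage and choline breakdown, the lipoate-carrying protein Gcsh averaged 11.24 and Dmgdh, which demethylates dimethylglycine, 11.22. Amd1, which commits S-adenosylmethionine to polyamines, averaged 8.43, and Mtap, which returns the methylthioadenosine left by polyamine synthesis to the methionine pool, 7.66.

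The comparison of interferon alpha with control asked what the cytokine did to these genes. The treatment itself was visible: Ifit3, an antiviral protein outside the pathway, was higher by 4.49 ± 0.50 at 6 h (22.5-fold, adjusted p = 0.00325), and Mx1, Isg15 and Cxcl10 were called as well at that time. At 3 h Cxcl10 was called, at 4.98 ± 0.52 (adjusted p = 0.0372), and with the block also Ifit3 (adjusted p = 0.0499), while Mx1 with 1.91 and Isg15 with 1.66 were not. Against this, 0 of the 46 one-carbon genes were called at 6 h, 0 at 3 h and 0 in the mean of both times, with or without the replicate block. Over all genes, limma called 0.563% at 6 h, 0.00703% at 3 h and 0.591% in the mean of both times, and with the block 1.46%, 0.113% and 1.41%. For the difference between the effects at 6 h and at 3 h the share was 0% of all genes in both fits, and 0 of the 46 were called. At an unadjusted limma p under 0.05, 1 of the 46 passed at 6 h, 0 at 3 h, 1 in the mean of both times and 0 for the difference, and with the block 3, 0, 3 and 0. Of all 14217 genes, 523, 385, 633 and 291 passed in the same order, and with the block 1233, 964, 1669 and 659.

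The data bound how large an effect could be, for each gene singly and not for all jointly. In the genes with a signal below the median of every array an effect could be understated. With the replicate block, the 95% interval of the mean interferon effect lay within 0.5 log2 of 0 for 45 of the 46 genes, and the lowest and highest limits over all of them were -0.52 and 0.33. Without the block the interval lay within 0.5 for 34 of the 46, and the limits were -1.03 and 1.05. Each time alone was bounded less tightly. At 6 h, 44 of the 46 lay within 0.5 with the block, with limits of -0.65 and 0.51, and 24 without it, with limits of -1.51 and 1.41. At 3 h, 44 did with the block (-0.57 and 0.36) and 25 without it (-1.41 and 1.51). In the mean of both times, the 46 changes themselves ran from -0.32 for Mat2a to 0.08 for Folr2. Of the 46, 37 were lower in value under interferon alpha, with a median of -0.04, beside a median of -0.02 over all genes. Bright genes as a whole leaned the same way: of the 5369 genes with a mean above the upper quartile of every array, 75.1% were lower in value with a median of -0.04, and of the 38 one-carbon genes among them 86.8% were lower.

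Mat2a, the methionine adenosyltransferase found outside the liver and in dividing hepatocytes, had the largest of these changes. At 6 h it read 8.43, 8.03 and 8.85 in the interferon alpha arrays and 8.92, 8.50 and 8.95 in the controls. At 3 h it read 8.66, 8.57 and 8.57 with interferon alpha and 8.86, 8.84 and 8.93 without. The treated arrays lay below all controls at 3 h, overlapped with them at 6 h, and were lower in 6 of 6 pairs of the same number and time. The mean difference was -0.32 ± 0.13 with an unadjusted limma p of 0.0316, an adjusted p of 1.00 and an adjusted p of 0.233 with the block, so it did not pass. The other probe sets of the gene did not share a direction, with differences of -0.22 ± 0.16 on one and 0.16 ± 0.08 on the other. The latter averaged 4.46, below the median of every array, where the share of background is not known.

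Mat1a, the liver form, and Mat2b, which regulates Mat2a, were also lower in value in 6 of 6 pairs, by changes of -0.12 and -0.07 that did not pass. In Mat1a the treated arrays at 6 h read 12.78, 12.50 and 11.78 and the controls 12.84, 12.72 and 12.05, so that the replicate numbers stood much further apart than the treatments. The other 5 genes lower in 6 of 6 pairs were Mthfd1, Mthfs, Aldh1l2, Ftcd and Amd1. None of the 46 was higher in 6 of 6 pairs. Over all genes 8.12% were lower in 6 of 6 pairs and 3.43% higher.

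Mthfd1, a cytosolic trifunctional enzyme that interconverts folate-bound units, read 11.04, 10.88 and 10.90 with interferon alpha at 6 h, against 11.22, 11.20 and 11.13 in the controls. Its treated arrays lay below all controls at that time, by -0.24 ± 0.09 (adjusted p = 1.00, with the block 0.469). At 3 h the same gene read 10.78, 10.89 and 11.03 with interferon alpha and 10.83, 10.93 and 11.05 without, a difference within the spread of either group. The difference between the effects at 6 h and 3 h was -0.20 ± 0.13 and did not pass. Amd1 changed by -0.17 ± 0.10 in the mean of both times (adjusted p = 0.478 with the block). Slc19a1, the reduced folate carrier, differed by -0.17 ± 0.12 at 6 h, where its treated arrays read 7.64, 7.47 and 7.80 and its controls 7.71, 7.62 and 8.09. Dnmt1, which copies methylation at replication, differed by -0.16 ± 0.11 at 3 h and Folr2 by 0.12 ± 0.10, and neither passed.

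**Figure D1:**
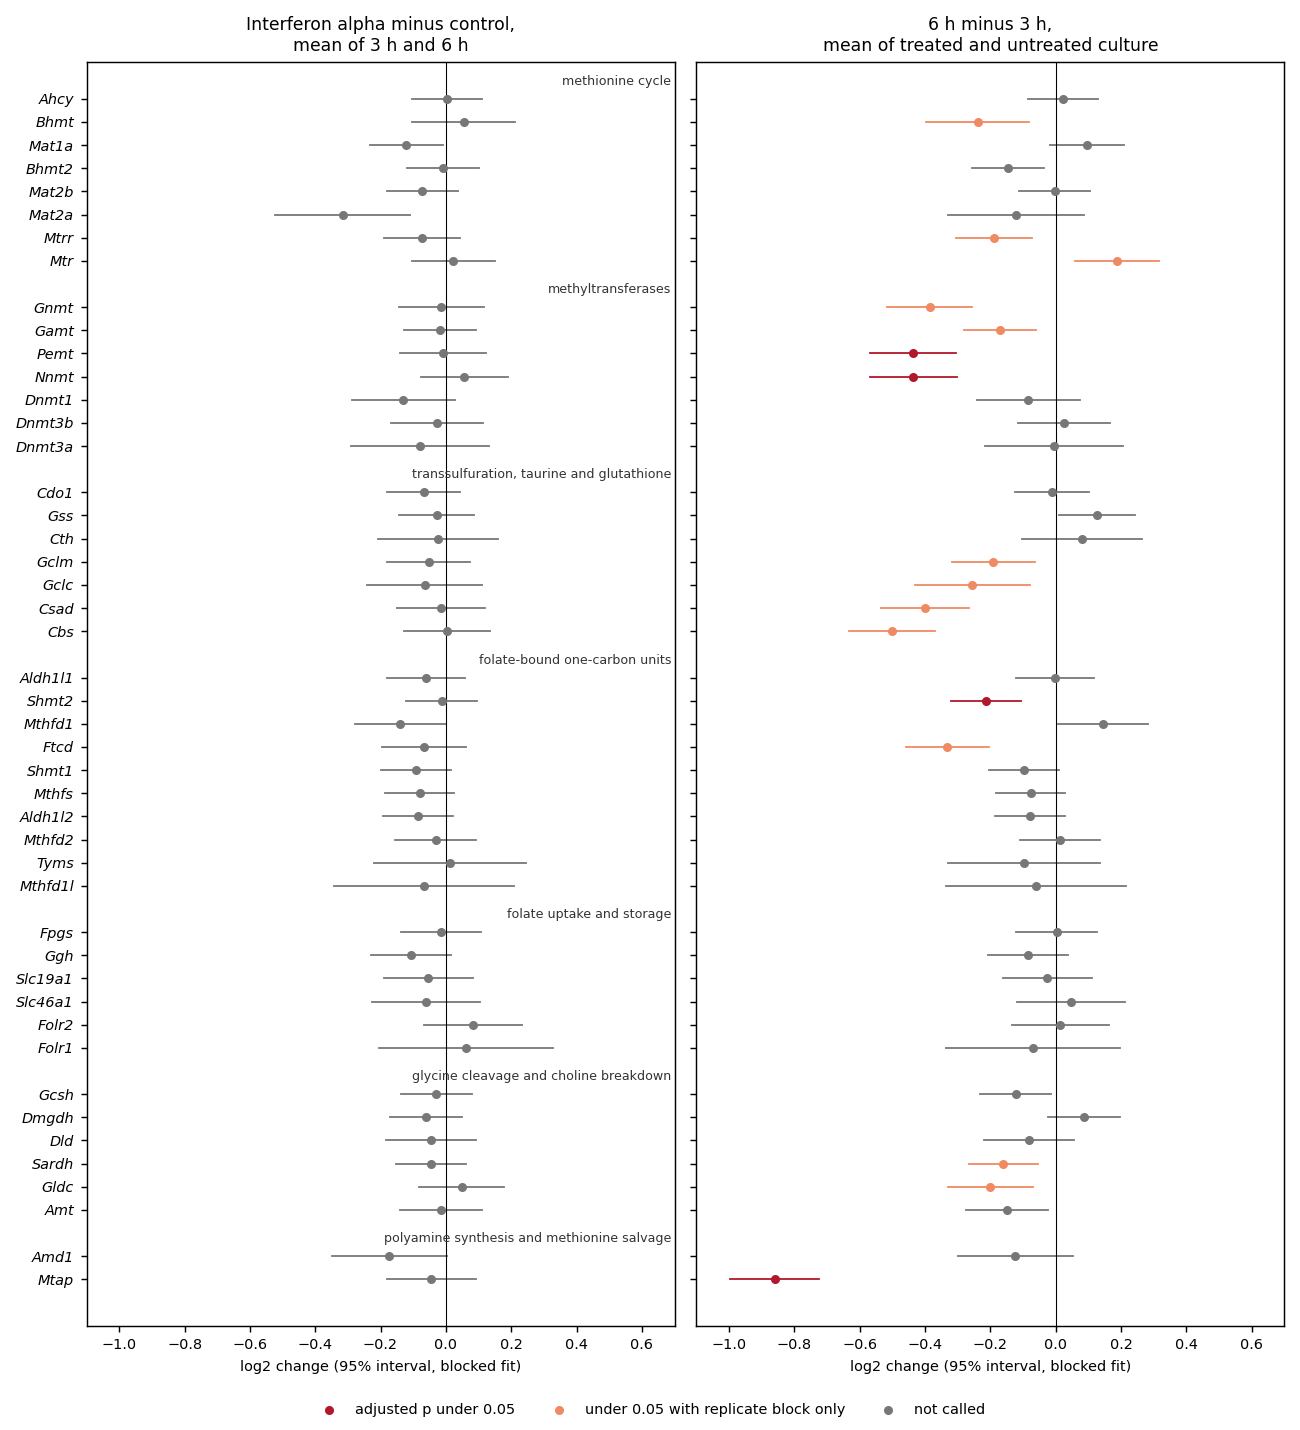
Log2 change of each of the 46 genes, grouped by role, for interferon alpha minus control (left, mean of 3 h and 6 h) and 6 h minus 3 h (right, mean of treated and untreated culture). Points are changes and bars are 95% intervals of the blocked limma fit; interferon changes lie near 0 with Mat2a lowest at -0.32, while on the right Mtap reaches -0.86 and 15 genes are lower with the block.

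The other comparison the design holds is between the times. Cells sampled at 6 h were compared with cells sampled at 3 h, in treated culture, in untreated culture and in the mean of both. The cultures use separate arrays, but those of one number and time deviated from their group means together. Agreement between the cultures is therefore not independent evidence. Here 4 of the 46 genes were lower at 6 h and 0 were higher in the mean of both treatments: the salvage enzyme Mtap, the methyltransferases Pemt and Nnmt, and the mitochondrial enzyme Shmt2. Over all genes limma called 2.44% lower and 2.15% higher in that comparison. With the replicate block 15 of the 46 were lower and 1 was higher, against 12.8% and 9.4% of all genes. That fit counts the treated and untreated arrays of one number and time as separate. The block does not remove what they share at one time, so its p-values for the mean of both treatments may be too small. In whole-culture RNA a lower signal from fewer cells of a type cannot be told apart from less RNA per cell.

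Markers of other cell types were set beside this comparison. The summed bile duct markers averaged 11.40 log2 at 6 h and 11.22 at 3 h, and the macrophage markers 12.06 at 6 h and 11.92 at 3 h. Signals were summed on the linear scale, so these sums mostly read Epcam, which averaged 11.28, and Cd14, which averaged 11.90. Of the measured markers, 3 of 4 bile duct and 3 of 6 macrophage ones lay below the array medians. The macrophage markers taken singly changed by -0.08 to 0.15. The lymphocyte markers averaged 6.40 at 6 h and 6.53 at 3 h, and the endothelial markers 6.54 at 6 h and 6.59 at 3 h. The stellate markers averaged 7.61 at 6 h and 7.71 at 3 h, and the hepatocyte markers 16.57 at 6 h and 16.60 at 3 h. Of their genes, the lymphocyte marker Klrb1a was lower at 6 h by a change of -0.49 ± 0.08 (adjusted p = 0.00759), and with the block the endothelial marker Stab2 was lower (adjusted p = 0.0332) and the bile duct marker Epcam higher (0.0265). The part of these in the one-carbon differences by time was not tested.

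Within interferon alpha culture 1 of the 46 was lower at 6 h, Mtap, and with the block 7 were, where limma called 0.211% of all genes lower and 0.253% higher, and with the block 6.37% and 5.74%. Within untreated culture 1 was again lower, Mtap, and with the block 7 were, where 0.134% of all genes were lower and 0.0633% higher, and with the block 6.22% lower and 3.57% higher. The 7 were the same genes in both cultures: Mtap, Cbs, Csad, Pemt, Gnmt, Nnmt and Ftcd. None of the 46 was called higher in either culture. With the block and without 1 array, the 7 were called in 7 to 12 of 12 fits in interferon alpha culture (fewest for Ftcd) and in 6 to 12 in untreated culture (fewest for Nnmt and Ftcd). Without 1 replicate number Mtap was called in 3 of 3 fits in both cultures. In interferon alpha culture the other 6 were called in 0 or 1 of 3, and in untreated culture Cbs was called in 2 of 3 and the other 5 in 0 of 3.

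One-carbon genes leaned lower at 6 h as a list, and the list was chosen with earlier results of these data known. Of the 46, 34 were lower in value, as were 7080 of all 14217 genes. The median change was 0.00 over all genes and -0.08 in the 46. Since most of these genes are bright, they were also set beside the bright genes alone, a background chosen after the data were seen: 20.6% of the 5369 bright genes were lower with the block, and 39.5% of the 38 bright one-carbon genes, which are 15 genes. Without the block the shares were 3.95% and 10.5%. These shares are a description and were not tested against each other. In 18 of the 46 the 6 h array was lower than the 3 h array of the same number and treatment in 6 of 6 pairs, as in 14.6% of all genes, and Gss was higher in 6 of 6, as in 10.9% of all genes.

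Mtap showed the largest difference by time. With interferon alpha it read 7.33, 7.24 and 7.11 at 6 h, against 7.99, 8.18 and 8.00 at 3 h. Without it the arrays read 7.11, 7.48 and 7.14 at 6 h, against 8.06, 8.27 and 8.06 at 3 h. Every array at 6 h lay below every array at 3 h, and treated and untreated arrays of one time overlapped. The mean change was -0.86 ± 0.08, a level of 0.551-fold (adjusted p = 0.00125, with the block 2.21e-05). It was -0.83 ± 0.12 in treated culture (adjusted p = 0.0214) and -0.89 ± 0.12 in untreated culture (adjusted p = 0.0296). Those calls within a culture were less steady without the block: the treated one stood in 7 and the untreated one in 2 of 12 fits without 1 array, and each in 0 of 3 fits without 1 replicate number. With the block both stood in 12 of 12 and 3 of 3. The gene's other probe sets changed less: one by -0.35 ± 0.09 (adjusted p = 0.0701, with the block 0.00719) and one by -0.12 ± 0.07 (adjusted p = 0.468). They averaged 4.72 and 4.27, below the median of every array, where a change could be understated. Leaving out any 1 of the 12 arrays kept the call of the mean change, at adjusted p of 0.00133 to 0.00512, and leaving out replicate number 1 from every group ended it, at 0.0583.

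Pemt, which makes phosphatidylcholine in the liver by methylating phosphatidylethanolamine, fell by 0.44 ± 0.10 at 6 h (0.738-fold, adjusted p = 0.0354, with the block 0.000555). Its treated arrays read 10.79, 10.92 and 10.42 at 6 h, against 11.15, 11.33 and 11.06 at 3 h. The untreated ones read 10.76, 10.90 and 10.59 at 6 h, against 11.05, 11.31 and 11.11 at 3 h. Number 3 was the lowest at 6 h in both cultures, and all 6 arrays at 6 h lay below all 6 at 3 h.

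Nnmt, which methylates nicotinamide, fell by 0.44 ± 0.09 at 6 h (0.739-fold, adjusted p = 0.0301, with the block 0.000626). With interferon alpha it read 7.90, 7.98 and 8.08 at 6 h, against 8.20, 8.63 and 8.71 at 3 h. Untreated arrays read 7.85, 8.07 and 8.14 at 6 h, against 8.29, 8.32 and 8.49 at 3 h. The times did not overlap. The treated change, -0.53, exceeded the untreated one, -0.35, and this difference of -0.18 ± 0.19 did not pass.

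Shmt2, the mitochondrial source of glycine and of methylene-folate from serine, fell by 0.21 ± 0.05 at 6 h (0.863-fold, adjusted p = 0.0406, with the block 0.0106). Treated arrays read 11.47, 11.35 and 11.38 at 6 h, against 11.63, 11.68 and 11.61 at 3 h, and untreated ones 11.49, 11.39 and 11.44 at 6 h, against 11.66, 11.67 and 11.55 at 3 h. The change was small, and so was the spread: no array at 6 h reached the lowest at 3 h. Its cytosolic counterpart Shmt1 changed by -0.10 ± 0.07 and was not called. Pemt, Nnmt and Shmt2 were called in 3, 2 and 1 of the 12 fits that left out 1 array, and in 12, 12 and 12 of those fits with the block. Without 1 replicate number, the blocked fits called Pemt and Nnmt in 3 of 3 and Shmt2 in 0 of 3.

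**Figure D2:**
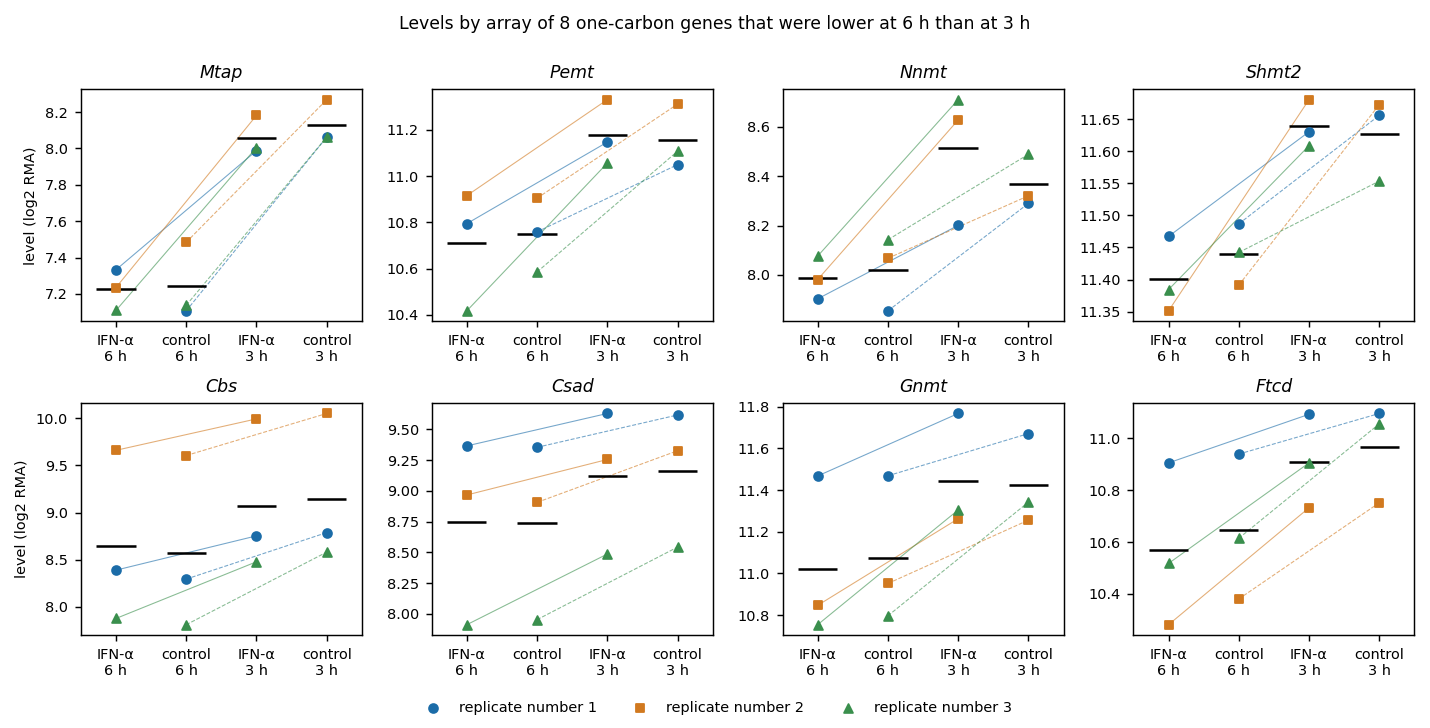
Log2 RMA signal of 8 genes in each of the 12 arrays, by group (interferon alpha 6 h, control 6 h, interferon alpha 3 h, control 3 h), with symbols for the replicate number, lines joining arrays of the same number and treatment, and bars for group means. In Mtap, Pemt, Nnmt and Shmt2 (top) the times do not overlap, while in Cbs, Csad, Gnmt and Ftcd (bottom) the times overlap and each pair of one number and treatment is lower at 6 h.

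Cbs, Csad, Gnmt and Ftcd were lower at 6 h in every pair of arrays of one number and treatment, and were called only with the replicate block. Cbs, which joins homocysteine and serine as the entry to transsulfuration, read 8.39, 9.66 and 7.88 with interferon alpha at 6 h, against 8.75, 9.99 and 8.48 at 3 h. In untreated culture it read 8.29, 9.61 and 7.81 at 6 h, against 8.79, 10.05 and 8.58 at 3 h. The arrays of number 2 lay above all others whatever the time. The change of -0.50 had a standard error of 0.43 without the block and 0.06 with it, and the adjusted p was 0.657 without and 0.000258 with the block.

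Csad, which decarboxylates cysteine sulfinate towards taurine, read 9.37, 8.97 and 7.91 with interferon alpha at 6 h, against 9.63, 9.26 and 8.49 at 3 h. Its untreated arrays read 9.35, 8.91 and 7.95 at 6 h, against 9.62, 9.33 and 8.54 at 3 h. Here number 1 was the highest and number 3 the lowest in each group, and the change was -0.40 (adjusted p = 0.637, with the block 0.00107). For Gnmt, treated arrays read 11.47, 10.85 and 10.75 at 6 h, against 11.77, 11.26 and 11.30 at 3 h. Untreated arrays of Gnmt read 11.47, 10.95 and 10.80 at 6 h, against 11.67, 11.26 and 11.34 at 3 h. Number 1 was the highest throughout, and the change was -0.39 (adjusted p = 0.257, with the block 0.00114).

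Ftcd, a liver enzyme that passes the formimino group of histidine breakdown to folate, read 10.90, 10.28 and 10.52 with interferon alpha at 6 h, against 11.09, 10.73 and 10.90 at 3 h. Its untreated arrays read 10.94, 10.38 and 10.61 at 6 h, against 11.09, 10.75 and 11.05 at 3 h. Number 2 was the lowest in each group, and the change was -0.33 (adjusted p = 0.216, with the block 0.00229). With the block, Cbs, Csad and Gnmt, like Mtap, Pemt and Nnmt, were called in 12 of 12 fits without 1 array and in 3 of 3 fits without 1 replicate number, and Ftcd in 12 of 12 and 1 of 3.

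The other 8 genes called with the block alone changed less and were less steady. In glutathione synthesis, both subunits of glutamate cysteine ligase were lower, with changes of -0.26 for the catalytic Gclc (adjusted p = 0.0467 with the block) and -0.19 for the modifier Gclm (0.0404). Another Gclc probe set averaged 10.55 at 6 h and 10.71 at 3 h, and was lower in 4 of 6 pairs. The change was -0.17 for Gamt (0.0359), and in the methionine cycle -0.24 for Bhmt (0.0396) and -0.19 for Mtrr, which reactivates methionine synthase (0.0277). Another Mtrr probe set fell by 0.26 ± 0.06 (adjusted p = 0.0405 without the block). In glycine cleavage and choline breakdown, the change was -0.20 for the decarboxylase Gldc (0.0355) and -0.16 for Sardh, which demethylates sarcosine (0.0408). The other probe sets of Gldc changed by 0.00 and -0.06 and that of Sardh by 0.07. Those of Gldc averaged 3.71 and 5.00, below the median of every array, where a change could be understated. Among these genes, Gclc was called in 2, Gclm in 3, Gamt in 4, Bhmt in 4, Mtrr in 4, Gldc in 4 and Sardh in 2 of the 12 blocked fits without 1 array.

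Mtr, methionine synthase, was the gene that was higher at 6 h, by 0.19 (adjusted p = 0.0457 with the block, 0.650 without it). Treated arrays read 6.14, 6.23 and 6.58 at 6 h, against 5.89, 5.84 and 6.43 at 3 h, and untreated ones 6.04, 6.12 and 6.50 at 6 h, against 5.79, 5.98 and 6.55 at 3 h. It was higher in 5 of 6 pairs, and was called in 2 of the 12 blocked fits without 1 array. Mat2a read differently by probe set: the brightest one changed by -0.12 and was not called. Another was higher at 6 h by 0.34 ± 0.08 (adjusted p = 0.0488, with the block 0.0118), but averaged 4.46, below the median of every array. The remaining one averaged 7.65 at 6 h and 7.59 at 3 h and was higher in 3 of 6 pairs.

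By role, the genes lower at 6 h with the block were 4 of 7 methyltransferases, 4 of 7 genes of transsulfuration, taurine and glutathione, 2 of 6 of glycine cleavage and choline breakdown, 2 of 8 of the methionine cycle, 2 of 10 that work on folate-bound units, 1 of 2 of polyamine synthesis and salvage, and 0 of 6 of folate uptake and storage. The DNA methyltransferases were not among them. Over all genes 12.8% were lower in that fit. Without the block the counts were 2 of 7 methyltransferases, 1 of 10 that work on folate-bound units, 1 of 2 of polyamine synthesis and salvage and 0 in the other roles, beside 2.44% of all genes. Medians of the change ran from -0.49 in the 2 genes of polyamine synthesis and salvage, -0.19 in the transsulfuration group and -0.17 in the methyltransferases to -0.01 in the folate uptake group. In untreated culture the 6 h arrays of Mthfd1 lay above its 3 h arrays (11.22, 11.20 and 11.13 against 10.83, 10.93 and 11.05), and its change in the mean of both treatments was 0.14 ± 0.06 (adjusted p = 0.291, with the block 0.155).

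The sequences around the start sites of genes lower at 6 h are shown with that of an interferon-induced gene, so that the letters searched for can be seen in place. They are RefSeq promoters of assembly GRCr8, 250 bases before to 50 after the start, written in the direction of the gene. Besides Ifit3, they belong to the 3 genes with a promoter that were called without the block. Gnmt and Cbs were added from those called only with it. Of the 46 genes 37 had an entry, and Bhmt2, Nnmt, Dnmt3b, Cdo1, Mthfd1, Aldh1l2, Ggh, Folr1 and Dmgdh had none. Capitals mark a CCAAT box (CCAAT or ATTGG) or a GC box (GGGCGG or CCGCCC), and in Ifit3 the interferon-stimulated response element (GAAA, any 2 bases, GAAA, or TTTC, any 2 bases, TTTC). Mtap lies at chr5:108990020-108990319 on the plus strand, Pemt at chr10:45341898-45342197 on the minus strand, Shmt2 at chr7:65249518-65249817 on the minus strand, Gnmt at chr9:21752032-21752331 on the plus strand, Cbs at chr20:9733876-9734175 on the minus strand and Ifit3 at chr1:241527076-241527375 on the plus strand.
Mtap: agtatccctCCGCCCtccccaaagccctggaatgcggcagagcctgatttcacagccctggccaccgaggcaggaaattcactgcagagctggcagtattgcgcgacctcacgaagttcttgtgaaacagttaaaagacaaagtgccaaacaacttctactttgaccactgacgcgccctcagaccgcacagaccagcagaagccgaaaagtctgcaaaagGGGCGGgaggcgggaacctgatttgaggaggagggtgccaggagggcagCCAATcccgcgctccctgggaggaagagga
Pemt: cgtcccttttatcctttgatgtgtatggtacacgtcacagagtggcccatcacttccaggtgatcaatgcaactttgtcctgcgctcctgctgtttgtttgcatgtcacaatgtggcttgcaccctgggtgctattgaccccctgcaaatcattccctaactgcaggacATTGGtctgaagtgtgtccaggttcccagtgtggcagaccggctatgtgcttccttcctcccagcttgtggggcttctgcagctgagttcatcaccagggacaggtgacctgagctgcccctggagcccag
Shmt2: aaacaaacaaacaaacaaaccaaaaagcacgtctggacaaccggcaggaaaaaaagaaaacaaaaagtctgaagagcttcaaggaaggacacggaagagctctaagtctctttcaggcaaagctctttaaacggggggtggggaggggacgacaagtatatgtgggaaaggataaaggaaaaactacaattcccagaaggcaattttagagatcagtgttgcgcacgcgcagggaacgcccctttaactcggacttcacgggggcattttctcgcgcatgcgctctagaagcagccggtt
Gnmt: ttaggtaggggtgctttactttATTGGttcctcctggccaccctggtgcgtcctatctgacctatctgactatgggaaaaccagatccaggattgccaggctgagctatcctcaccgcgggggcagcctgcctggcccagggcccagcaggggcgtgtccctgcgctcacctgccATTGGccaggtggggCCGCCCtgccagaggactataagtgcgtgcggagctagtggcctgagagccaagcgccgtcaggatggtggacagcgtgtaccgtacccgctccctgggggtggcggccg
Cbs: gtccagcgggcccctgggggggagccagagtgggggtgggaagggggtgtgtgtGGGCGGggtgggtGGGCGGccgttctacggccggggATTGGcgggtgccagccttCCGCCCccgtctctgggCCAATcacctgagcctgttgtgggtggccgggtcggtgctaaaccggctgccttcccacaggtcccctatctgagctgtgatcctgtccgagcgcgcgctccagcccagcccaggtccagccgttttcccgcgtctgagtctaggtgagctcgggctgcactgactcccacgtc
Ifit3: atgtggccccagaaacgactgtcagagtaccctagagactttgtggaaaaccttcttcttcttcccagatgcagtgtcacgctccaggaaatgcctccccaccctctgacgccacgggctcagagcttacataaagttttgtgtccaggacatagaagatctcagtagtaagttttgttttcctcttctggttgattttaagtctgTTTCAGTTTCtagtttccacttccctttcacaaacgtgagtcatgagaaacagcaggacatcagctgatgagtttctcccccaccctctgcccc

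On both strands, the interferon-stimulated response element was in 0 of the 37 one-carbon promoters and in 3.92% of all 33469 promoters of that length, and of the 3 interferon response genes with a promoter entry Ifit3 and Cxcl10 held it and Mx1 did not. The CCAAT box was in 20 of the 37 (54.1%), against 37.5% of all promoters, and the GC box in 25 of the 37 (67.6%), against 33.1%. The E-box CACGTG, which reads the same on both strands, was in 4 of the 37 (Dnmt3a, Cth, Shmt1 and Sardh), or 10.8%, against 6.42%. The promoters of Pemt and Shmt2 held no GC box, Shmt2 held no CCAAT box, and Mtap, Gnmt and Cbs held both. Ftcd and Csad, also called only with the block but not shown, differed from Gnmt and Cbs. Ftcd held neither box, and Csad held a GC box and no CCAAT box. A match of letters is a description of the sequence and was not tested for binding.

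The largest differences in these genes were between replicate numbers, not between treatments or times. Split by sum of squares, the replicate number took a median of 74.6% of a one-carbon gene's variation over the 12 arrays, time 4.24% and interferon alpha 0.893%. Over all genes the medians were 34.7%, 9.02% and 3.14%. Among bright genes the replicate number took 86.4% in the 38 one-carbon genes and 55.6% in all 5369. It held the largest share in 32 of the 46 genes and in 6240 of the 14217. The replicate number has more levels than time or interferon alpha, which by itself favours it in such a split. These shares are a description, and what a replicate number stands for is not given in the labels.

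**Figure D3:**
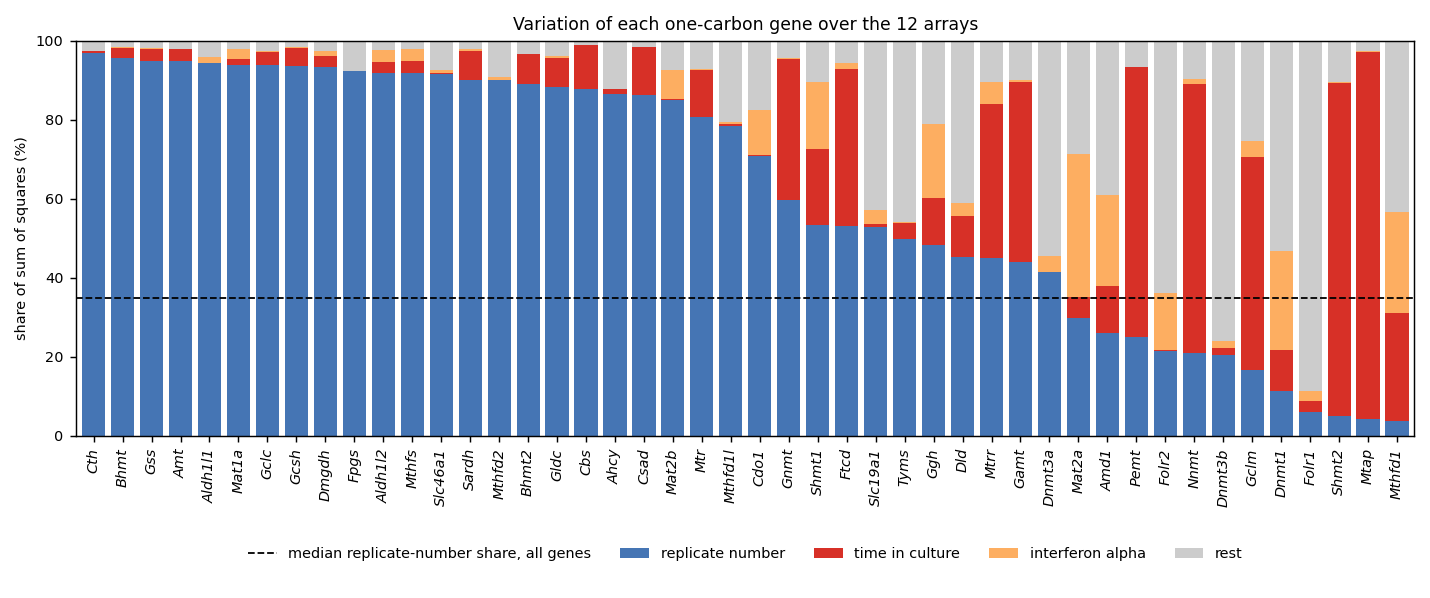
Share of the sum of squares over the 12 arrays taken by replicate number, time, interferon alpha and the rest, in percent, for each of the 46 genes in order of the replicate-number share. The dashed line is the median replicate-number share of all genes, 34.7%; most one-carbon genes stand above it, while time takes the largest share in Mtap, Shmt2, Pemt, Nnmt, Gclm and Gamt, and interferon alpha in Mat2a.

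Cth, Bhmt and Cbs had the widest gaps. Cth, which releases cysteine from cystathionine, averaged 11.58, 12.25 and 10.46 in numbers 1, 2 and 3 (4 arrays each), a range of 1.79 or 3.46-fold, and 97.0% of its variation followed the number. Its treated arrays at 6 h read 11.72, 12.34 and 10.20 and its controls 11.58, 12.42 and 10.54. No array of one number overlapped with those of another. Cbs averaged 8.56, 9.83 and 8.19, a 3.12-fold range in the same order of numbers.

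Bhmt followed that order too, with means of 13.18, 13.51 and 11.82 in numbers 1, 2 and 3, a 3.24-fold range. Csad averaged 9.49, 9.11 and 8.22. Mat1a averaged 12.75, 12.54 and 11.90, and Amt, the aminomethyltransferase of glycine cleavage, 9.17, 9.31 and 8.38. In these genes number 3 was the lowest.

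Gclc and Gss, of glutathione synthesis, ran the other way. Gclc averaged 10.81, 10.48 and 12.07 in numbers 1, 2 and 3, a 2.99-fold range with number 3 highest, and Gss averaged 11.47, 11.16 and 11.99. Slc46a1, the proton-coupled folate transporter, averaged 7.41, 7.41 and 8.21 and was highest in number 3 as well. In Gclm the number took 16.5% of the variation and time 54.0%. Of the 46 genes, 19 had a range over 0.5 log2 between number means, and among these number 3 was the lowest in 11 and the highest in 6. A range over 1 was seen in 5 of the 46 and in 4.13% of all genes.

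Beside these gaps, the summed hepatocyte markers averaged 16.59, 16.65 and 16.52 log2 in numbers 1, 2 and 3, the macrophage markers 12.25, 11.83 and 11.89, and the bile duct markers 10.88, 11.66 and 11.39. The macrophage sum mostly read Cd14 and the bile duct sum mostly Epcam. The actin 3' minus 5' difference averaged 0.654, 0.724 and 0.652. The part of any of these in the one-carbon differences was not tested.

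**Figure D4:**
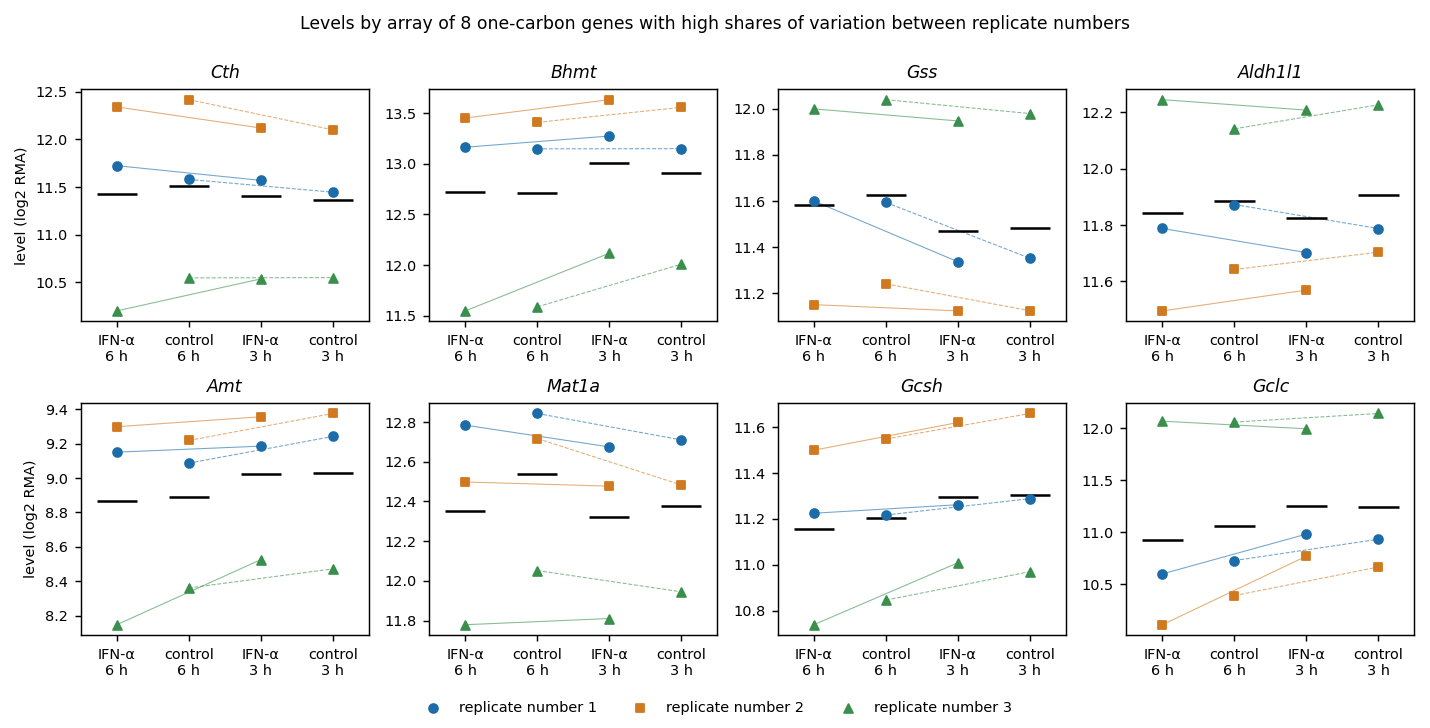
Log2 RMA signal of 8 genes with high shares of variation between replicate numbers, in each of the 12 arrays by group (interferon alpha 6 h, control 6 h, interferon alpha 3 h, control 3 h), with symbols for the number and bars for group means. Number 3 is the lowest in Cth, Bhmt, Amt, Mat1a and Gcsh and the highest in Gss, Aldh1l1 and Gclc.

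Of 54 further genes of the same pathways listed beside the 46, 49 were measured. Under interferon alpha 1 of the 49 was higher in the mean of both times, 0 were lower and 48 were not called, where 0.591% of all genes were called in either direction. This was Cd320, the receptor that takes up vitamin B12 bound to transcobalamin, the vitamin that methionine synthase needs. At 6 h it read 8.00, 8.62 and 7.08 with interferon alpha and 6.10, 6.23 and 5.82 in the controls, and at 3 h 7.08, 8.28 and 7.85 with interferon alpha and 6.50, 6.57 and 7.00 in the controls. The treated arrays lay above all controls at both times. The mean difference was 1.45 ± 0.26, or 2.73-fold (adjusted p = 0.0457, with the block 0.00557), and it was called in 2 of the 12 fits that left out 1 array, and with the block in 12 of 12. Leaving out replicate number 2 from every group ended the blocked call, at an adjusted p of 0.215.

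By time 1 of the 49 was higher at 6 h, 1 was lower and 47 were not called in the mean of both treatments, and with the block 5 were higher, 15 lower and 29 not called. The shares of all genes were 2.15% higher and 2.44% lower, and with the block 9.4% and 12.8%. Chac1, which breaks down glutathione, was higher by 1.13 ± 0.19 or 2.18-fold (adjusted p = 0.0114, with the block 0.000543). It read 9.88, 9.25 and 9.87 with interferon alpha at 6 h, against 8.05, 8.63 and 8.75 at 3 h. Its untreated arrays read 9.91, 9.24 and 9.90 at 6 h, against 8.20, 8.66 and 8.99 at 3 h, so that all arrays at 6 h lay above all at 3 h. Ggct, which forms oxoproline from gamma-glutamyl amino acids, fell by 0.50 ± 0.12 (adjusted p = 0.0416, with the block 0.000302). It read 11.30, 10.63 and 10.82 with interferon alpha at 6 h, against 11.60, 11.31 and 11.47 at 3 h, and 11.28, 10.93 and 10.99 without it at 6 h, against 11.69, 11.38 and 11.52 at 3 h.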

How the data were processed

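Gene expression was measured on 12 Affymetrix arrays of primary rat hepatocytes. The authors deposited log2 signals for each probe set, computed by RMA from the affy package in R 2.10.0 according to the submitters' processing notes. RMA equalizes the arrays' distributions, and a change common to almost all transcripts would therefore be hidden. Biotinylated cRNA came from 5 µg of total RNA, per the labels' protocols. The sources used here do not give the probe set definition file.

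From the 31099 deposited probe sets 57 controls were left out. Of the 31042 tested, 20826 had 1 symbol in the platform annotation, 436 had several and 9780 were not listed. By Entrez identifier 20758 were matched to RefSeq genes of GRCr8, and 0 symbols changed. Promoters, also of GRCr8, were matched by gene.

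All comparisons came from 1 fit in limma 3.58.1 (lmFit and eBayes, R 4.3.3) over 4 groups with 8 residual degrees of freedom, or 6 with the replicate number as a block, two-sided, with Benjamini-Hochberg adjustment. The script was tested on simulated data. Groups and numbers came from the titles. P-values measure the spread between these arrays. With the block they measure only the spread left once differences between replicate numbers are taken out. Deviations from group means correlated at 0.651 to 0.829 between arrays of the same number and time (6 pairs). Across times the same number gave 0.479 to 0.736 (12 pairs), and different numbers of different groups gave -0.562 to -0.0747 (36 pairs). Deviations within a group cancel out by construction, so the negative values follow on average from the positive ones and are not separate evidence. The numbers were taken to pair the arrays, on this check and not on the labels.

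Named in full were members called in a comparison with or without the block (at most 8 by size), the 3 with the smallest unadjusted p, the 2 brightest of each role, and called genes of the related list (at most 4). Shmt2 was added as 1 of 4 calls, and the members described for their replicate-number gaps, and single probe sets, were chosen after their values were seen. The members and lists were chosen with earlier results of these data known. Alternatives were the block, a block within each time, limma-trend, array weights, a filter on dim probe sets, median scaling, probe set means, fewer groups in the fit, and leaving out arrays or replicate numbers. The bright-gene background and leaving out arrays with the block were added after seeing the data.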

Additional observations from a re-analysis of the deposited data

How the results depend on the processing

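The replicate block moved the count of one-carbon genes called to 7 in interferon alpha culture, 7 in untreated culture and 16 in the mean of both (by time, against 1, 1 and 4 without it), and changed 0 of the interferon counts. The count in untreated culture was 0 with limma-trend, 0 with the mean of a gene's probe sets and 0 with only the control arrays in the fit. In interferon alpha culture it was 0 with the mean of a gene's probe sets and 0 with only the interferon alpha arrays. Leaving out arrays or replicate numbers, with or without the block, gave 0 to 7 genes in interferon alpha culture, 0 to 7 in untreated culture and 0 to 14 in the mean of both. Without the block the last ranged over 1 to 2 genes without 1 array and 0 to 1 without 1 replicate number, and Mtap was called in 12 of 12 fits without 1 array, Pemt in 3, Nnmt in 2 and Shmt2 in 1. With the block the counts were 8, 9, 10, 11, 12 or 14 without 1 array and 6 or 8 without 1 replicate number.

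Under interferon alpha 0 one-carbon genes were called in the alternatives run, with 1 exception: with the block and without interferon alpha 6 h replicate 3, Mat2a passed in the mean of both times at -0.40 (adjusted p = 0.0416), 1 gene of the 46. With a block within each time its adjusted p was 0.0530. Reversed signs occurred in 2 cases, both within interferon alpha culture and without the block: without 1 array, Cbs, interferon alpha 6 h minus interferon alpha 3 h, ranged from -0.94 to 0.027, positive without interferon alpha 3 h replicate 2, and Csad, interferon alpha 6 h minus interferon alpha 3 h, ranged from -0.70 to 0.042, positive without interferon alpha 6 h replicate 3; the cause was not tested. The named genes kept their direction and side of the threshold in 1177 values, lost the call in 102 and gained it in 193. Over all probe sets the block moved the calls under interferon alpha at 6 h to 329 higher and 11 lower, against 120 and 0, and those by time to 2618 higher and 3106 lower, against 610 and 599. Without the block, the 95% interval of the mean interferon effect lay within 0.5 log2 of 0 for 34 of the 46 genes, and signals near background limit 5 genes.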
